A study of Mus musculus with 7 samples.

Results

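The 5 genes described here, Mpo, Elane, Prtn3, Ctsg and Ms4a3, are expressed at the promyelocyte stage of the granulocyte lineage. They were picked by name out of 25033 genes listed in whole transcriptome RNA sequencing data of T-cells, and the values that singled them out were their read counts in ORP4L KI against wild-type (WT) libraries. Their difference between the groups and their order across the ORP4L KI libraries are therefore given as a description, without a test. The data comprise 4 ORP4L KI libraries and 3 WT libraries, 1 per mouse. ORP4L is an oxysterol-binding protein that moves lipids between membranes, and its mouse gene is Osbp2. In ORP4L KI mice the coding sequence of human ORP4L, with a 3xFlag tag and an IRES-EGFP reporter, was placed behind a CAG promoter and a floxed stop cassette in Rosa26, and Cre under the T-cell promoter Lck removed the stop. Both groups were on C57BL/6J and are labelled 15 months old. By the study's description of these data, the ORP4L KI animals were moribund at sampling and the WT littermates were of the same age, so genotype and disease state cannot be told apart. Cells came from peripheral blood mononuclear cells or splenocytes through a naive CD4+ T-cell isolation kit and were kept with IL-2 and PHA, and the sources used here do not say which tissue each library stands for.

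Developing neutrophils fill their granules in waves. The first wave, in promyelocytes, makes the primary or azurophilic granules, which hold myeloperoxidase and a family of chymotrypsin-like serine proteases. The second wave makes lactoferrin-rich secondary granules, by which time transcription of the primary granule genes has been shut down, and mature neutrophils keep the proteins but little of the mRNA. Mpo encodes the haem peroxidase that makes hypochlorous acid. Elane, Prtn3 and Ctsg encode neutrophil elastase, proteinase 3 and cathepsin G. Ms4a3 encodes a membrane protein of the Ms4a family that marks granulocyte and monocyte progenitors. T-cells are not known as a source of these mRNAs. In bulk RNA, more cells of a type and more RNA per cell cannot be told apart.

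Elane and Prtn3 are neighbours on mouse chromosome 10, both on the forward strand, Prtn3 at chr10:79879667-79883174 and Elane at chr10:79886312-79888216, with 3137 bases between them. Mpo lies on the forward strand of chromosome 11 (chr11:87793784-87804412), Ctsg on the reverse strand of chromosome 14 (chr14:56099885-56102574) and Ms4a3 on the reverse strand of chromosome 19 (chr19:11629499-11640851). Positions and sequences are those of RefSeq on GRCm38.p6. The start regions of Elane, Prtn3 and Mpo are shown because these genes moved together, and that of Cfd, complement factor D, because it is the next gene after Elane and had no read in any library. All 4 are on the forward strand. Capitals mark matches to GAGGAA (the core of a PU.1 site), its extension GAGGAAGT, AACGG (a MYB core), GCAAT (part of a C/EBP site, read as ATTGC on the other strand) and TATAA (the TATA box). The regions are chr10:79886212-79886331 for Elane, chr10:79879567-79879686 for Prtn3, chr11:87793534-87793803 for Mpo and chr10:79890753-79890872 for Cfd.
Elane: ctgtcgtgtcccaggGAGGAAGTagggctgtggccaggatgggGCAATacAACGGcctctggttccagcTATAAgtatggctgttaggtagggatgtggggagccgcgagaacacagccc
Prtn3: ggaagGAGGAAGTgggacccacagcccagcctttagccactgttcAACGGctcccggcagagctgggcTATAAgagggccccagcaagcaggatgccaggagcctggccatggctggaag
Mpo: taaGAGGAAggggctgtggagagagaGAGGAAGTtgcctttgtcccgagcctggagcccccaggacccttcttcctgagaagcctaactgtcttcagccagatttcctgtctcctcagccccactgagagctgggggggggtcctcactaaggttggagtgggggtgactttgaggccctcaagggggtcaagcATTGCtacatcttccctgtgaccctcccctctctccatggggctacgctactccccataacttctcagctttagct
Cfd: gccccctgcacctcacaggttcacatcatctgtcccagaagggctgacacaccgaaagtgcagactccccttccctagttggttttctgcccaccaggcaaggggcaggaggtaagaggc
The Elane and Prtn3 regions share a layout. GAGGAAGT begins 85 bases before the Elane start and 95 before that of Prtn3, AACGG begins 50 and 55 bases before, and TATAA 31 and 32. Elane also has GCAAT 57 bases before its start. Mpo has GAGGAA at 247 and GAGGAAGT at 224 bases before its start and ATTGC at 56, with neither AACGG nor TATAA. Over the full windows of 300 bases, Ctsg holds GAGGAA at 216 bases and a TATAA on the reverse strand at 236 bases before its start, and Ms4a3 holds GAGGAA and ATTGC only downstream of it, at bases 36 and 41. None of these letters occurs in the Cfd region. Among 32851 such windows of 27025 genes, searched on both strands, GAGGAA occurs in 28.3%, GAGGAAGT, which lies within the first, in 3.2%, AACGG in 17.4%, GCAAT in 26.4% and TATAA in 24.9%. The motifs were picked with these windows in view, and a match is a run of letters and not a bound site.

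Total counts ranged from 12918187 to 15912921 in WT and from 16757959 to 19665679 in ORP4L KI libraries. Osbp2, to which reads of the introduced ORP4L may map, had 0, 0 and 1 reads in WT and between 155 and 742 in ORP4L KI libraries. ORP4L KI replicate 1 stood apart, since its 10 highest genes took 14.3% of all counts against 5.23% to 7.96% elsewhere, with the neutrophil gene S100a9 on top. In ORP4L KI replicate 4, at 7.96%, the top gene was the neutrophil granule gene Ngp. In the remaining libraries it was Eef1a1. Each of the 12 T-cell markers had at least 1003 reads in every library, with a summed level of 2348 to 3208 CPM in WT and 1634 to 4539 CPM in ORP4L KI, lowest in replicate 1. They include Cd8a, at 124 to 179 CPM in WT and 79.6 to 226 CPM in ORP4L KI libraries. Cd4 had 257 to 360 CPM in WT and 93.4 to 415 CPM in ORP4L KI libraries. CPM are counts scaled to the library total and corrected by TMM for the pull of a few abundant genes.

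Mpo, the most read of the 5 genes, had 129, 24.8 and 17.6 CPM in WT replicates 1, 2 and 3. In ORP4L KI replicates 1, 2, 3 and 4 it had 2630, 378, 579 and 905 CPM. The groups did not overlap, and the lowest ORP4L KI library, replicate 2, stood 2.92 times above the highest WT library, replicate 1. The means were 1123 ± 1028 CPM in ORP4L KI (SD, n = 4) and 57.2 ± 62.5 CPM in WT (SD, n = 3), and the fitted log2 fold change was 4.29 (SE 0.95).

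Elane, for neutrophil elastase, had 49.9, 8.43 and 4.85 CPM in WT replicates 1 to 3. It had 1242, 108, 202 and 356 CPM in ORP4L KI replicates 1 to 4. Of the 5 genes it came closest to overlap, with ORP4L KI replicate 2 only 2.17 times above WT replicate 1. Its log2 fold change was 4.50 (SE 1.11).

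Prtn3, for proteinase 3, had 39.1, 13.02 and 5.34 CPM in WT and 1399, 119, 208 and 294 CPM in ORP4L KI libraries, in the same order of replicates. The gap between replicate 1 and the next ORP4L KI library, 4.76-fold, was wider than for Mpo (2.91-fold) and Elane (3.49-fold). The log2 fold change of Prtn3 was 4.72 (SE 1.06).

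Ctsg, for cathepsin G, had 13.98, 3.77 and 2.39 CPM in WT and 386, 48.7, 84.3 and 121 CPM in ORP4L KI libraries. Its counts in WT were small, 225, 60 and 34 reads, and the exact Poisson 95% intervals of WT replicates 2 and 3 overlapped (2.88 to 4.86 and 1.65 to 3.34 CPM). The log2 fold change of Ctsg was 4.57 (SE 0.90).

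Ms4a3 had 6.09, 2.39 and 0.70 CPM in WT, the last from 10 reads, and 355, 25.9, 48.0 and 71.8 CPM in ORP4L KI libraries. It was the lowest of the 5 genes and had the widest spread, 13.7-fold between the highest and lowest ORP4L KI library, against 6.96-fold for Mpo, 7.92-fold for Ctsg, 11.5-fold for Elane and 11.8-fold for Prtn3. Its log2 fold change was 5.34 (SE 1.11), and its lowest ORP4L KI library stood 4.25 times above its highest WT library.

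**Figure D1:**
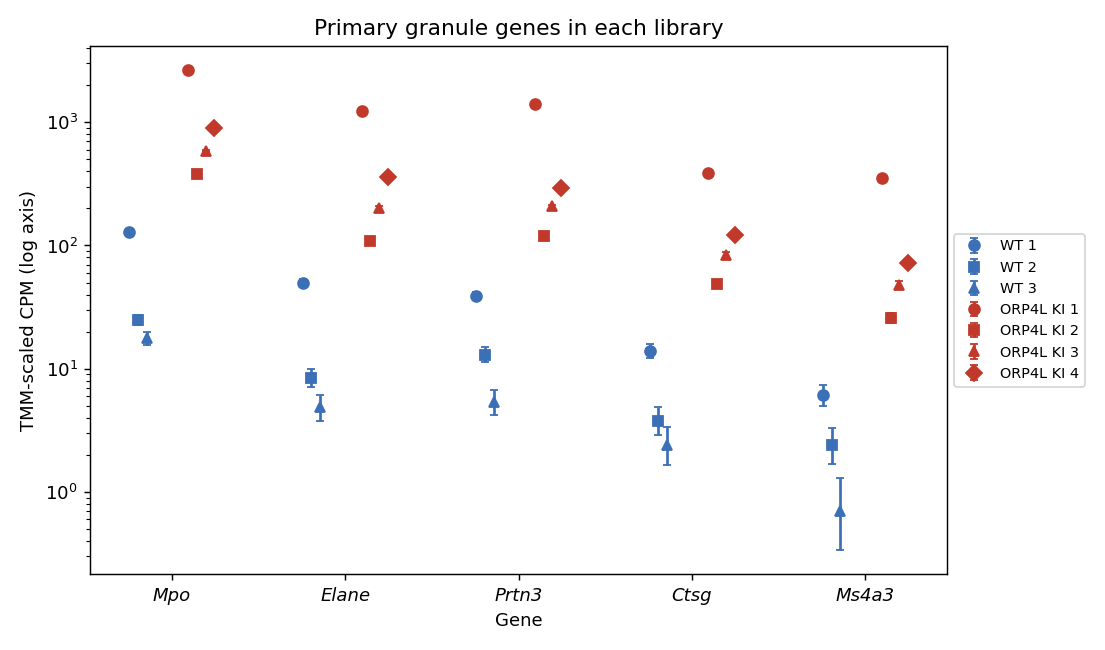
TMM-scaled CPM of the 5 genes on a log axis, 1 point per library, in blue for WT and red for ORP4L KI, with exact Poisson 95% intervals that cover counting error only and are often smaller than the point. For every gene the 4 ORP4L KI libraries lie above the 3 WT libraries, and replicate 1 is the highest library within each group.

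The order of libraries was the same for all 5 genes. From high to low it ran ORP4L KI replicates 1, 4, 3 and 2, then WT replicates 1, 2 and 3. Of all 13462 genes tested, 16.7% had this order of ORP4L KI libraries, 21.1% this order of WT libraries and 5.17% both. The steps between the lower ORP4L KI libraries were of like size from gene to gene. Replicate 4 exceeded replicate 3 by 1.41-fold (Prtn3) to 1.76-fold (Elane), and replicate 3 exceeded replicate 2 by 1.53-fold (Mpo) to 1.87-fold (Elane). The step from replicate 4 up to replicate 1 was larger, 2.91-fold for Mpo to 4.94-fold for Ms4a3. Within WT, replicate 1 exceeded replicate 2 by 2.55-fold (Ms4a3) to 5.93-fold (Elane). For each gene, the intervals of neighbouring libraries did not overlap, apart from those of Ctsg in WT replicates 2 and 3. These intervals cover counting error only, and with 1 mouse per library the differences between neighbours in the order cannot be tested.

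In all, 5 of 5 genes passed the call lines of edgeR's quasi-likelihood test, set at p below 0.01 before adjustment and at a fold change of more than 1 either way on the log2 scale. Of the 13462 genes tested 4.68% were called, 2.38% as higher and 2.3% as lower in ORP4L KI. Likewise 5 of 5 had every ORP4L KI library above every WT library, as did 6.43% of all genes, while 7.38% had every ORP4L KI library below. The median log2 fold change was 4.57 over the 5 genes and 0.013 over all genes. Since the genes were chosen on this contrast, nothing is read from these counts. At a Benjamini-Hochberg adjusted p under 0.05 in the same edgeR test 0 of the 5 passed, where 0.0223% of all genes did. All 5 had an unadjusted p under 0.05, and DESeq2's Wald test gave 5 of 5 an adjusted p under 0.05. Without WT replicate 2 or without WT replicate 3, Elane was no longer called. Single libraries set the size of the difference: the median log2 fold change was 3.44 without ORP4L KI replicate 1 and 5.78 without WT replicate 1.

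The share of all reads that fell on the 5 genes was 0.0258%, 0.00524% and 0.00341% in WT replicates 1 to 3, and 0.502%, 0.0740%, 0.112% and 0.161% in ORP4L KI replicates 1 to 4. The level of single genes among all others shifted accordingly. By RPKM, which divides reads by the length of the longest transcript and the size of the library, Prtn3 ranked 103rd of 25033 genes in ORP4L KI replicate 1 and 529th in replicate 2, against ranks from 1842 to 7614 in WT. Mpo ranked between 133 and 428 in ORP4L KI and between 1469 and 6928 in WT.

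Per length, the order of the genes differed from that of their reads. The Mpo transcript is 2546 bases long and the others 920 (Elane) to 1009 (Ms4a3), so Mpo led by reads in every library but not by RPKM. Mean RPKM in ORP4L KI was 457.1 for Elane, 457.1 for Prtn3, 394.0 for Mpo, 142.7 for Ctsg and 108.5 for Ms4a3. The upper 3 changed places from library to library. Prtn3 was first in ORP4L KI replicate 1, Mpo in replicates 2 and 3, and Elane in replicate 4. In WT replicates 1, 2 and 3 the first was Elane, Prtn3 and Mpo. In all 7 libraries Ctsg came next and Ms4a3 was the lowest.

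The make-up of the 5 genes varied far less than their sum. In ORP4L KI libraries Elane took 25.4% to 31.3% of their summed RPKM, Prtn3 24.5% to 31.6%, Mpo 22.6% to 32.1%, Ctsg 8.47% to 10.6% and Ms4a3 5.54% to 7.71%. Replicate 1, with the highest sum, had the lowest share of Mpo (22.6%, against 28.7% to 32.1% in the others) and the highest of Ms4a3 (7.71%, against 5.54% to 6.00%). Elane and Prtn3, the adjacent pair, gave near-equal reads. Elane held 47.0%, 47.7%, 49.3% and 54.8% of the reads of the pair in ORP4L KI replicates 1 to 4, and 56.1%, 39.3% and 47.6% in WT replicates 1 to 3. By exact Clopper-Pearson 95% intervals, ORP4L KI replicate 4 (53.8% to 55.7%) lay above the other 3 ORP4L KI libraries, whose intervals together ran from 46.2% to 50.4%. WT replicates 1 (53.5% to 58.7%) and 2 (34.1% to 44.7%) were apart from each other, and both groups spanned the value of equal reads. How reads shared by related proteases were counted is not given in the sources used here.

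**Figure D2:**
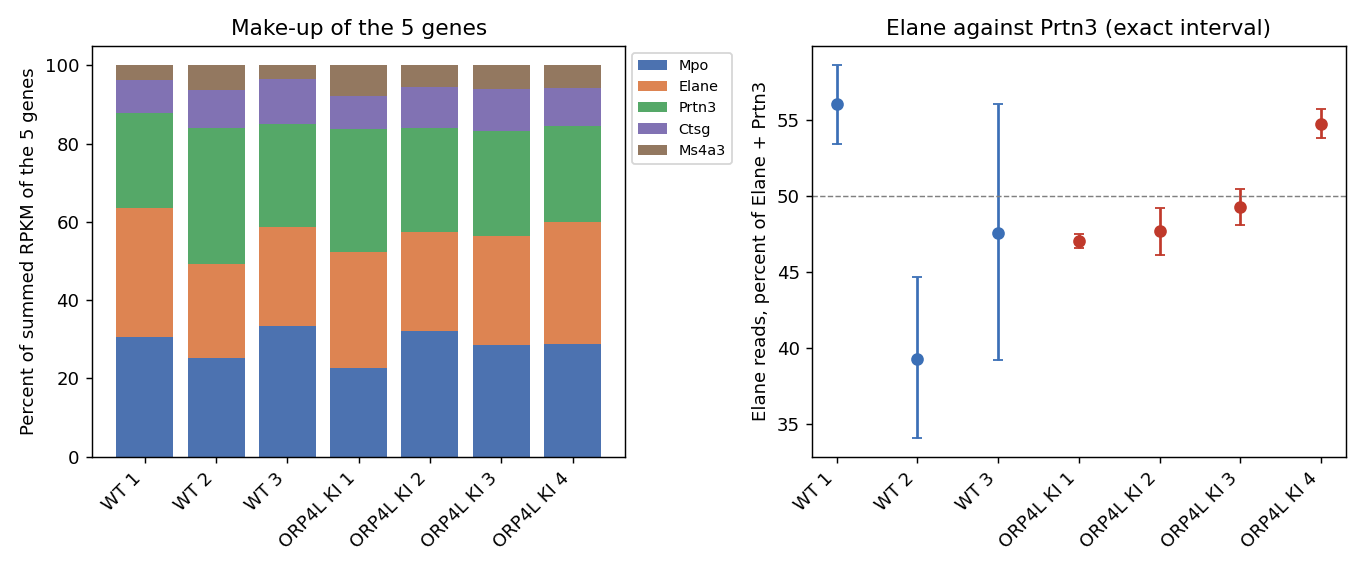
Left, share of each gene in the summed RPKM of the 5 genes, 1 bar per library. Right, Elane reads as a percent of Elane and Prtn3 reads, with exact 95% intervals and a dashed line at equality, on an axis that does not start at 0. The shares are alike across libraries whose sums differ over 100-fold, and ORP4L KI replicate 4 and WT replicate 1 lie above the line.

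Other contents of the primary granule were mostly not called. Of 14 tested genes for azurophil contents, 2 were called higher and none lower, with a median log2 fold change of 0.26. The pair were Prss57 and Fcnb. Prss57, the gene of a further neutrophil serine protease, had 0.91 to 2.98 CPM in WT and 5.204 to 60.5 CPM in ORP4L KI libraries (log2 fold change 3.65, SE 0.88). Fcnb, for the lectin ficolin B, had 3.65 to 20.3 CPM in WT and 40.4 to 333 CPM in ORP4L KI (log2 fold change 4.13, SE 0.88). Both were among 10 of the 14 genes with the same order of ORP4L KI libraries as the 5 genes, an order seen in 16.7% of all genes. Lyz2 was another of these 10. Lyz2, for lysozyme, which monocytes and macrophages also make, had 2030 to 3446 CPM in WT and 1388 to 5419 CPM in ORP4L KI, and the groups overlapped (log2 fold change 0.27, SE 0.44). Srgn, for the granule proteoglycan serglycin, was at 0.16 (SE 0.30). Only Fcnb remained called without WT replicate 2 and without WT replicate 3, where Prss57 missed the line.

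Among 11 tested genes that process or inhibit the granule proteases and peroxidase, 1 was called, Serpinb1a, an inhibitor of elastase, proteinase 3 and cathepsin G. Serpinb1a had 18.2 to 38.9 CPM in WT and 71.6 to 583 CPM in ORP4L KI libraries (log2 fold change 3.05, SE 0.66). Of the same 11 genes, 2 were called without WT replicate 1 and 3 without ORP4L KI replicate 2. Slpi, a secreted inhibitor of elastase, had 2119 CPM in ORP4L KI replicate 1 and 82.6 to 341 CPM in the others, within reach of the WT range of 80.4 to 219 CPM, and was not called (log2 fold change 2.27, SE 0.99). Ctsc, for the peptidase that trims the proteases to their active form, and Cst7, for its inhibitor cystatin F, were picked after their values were seen. Ctsc was at -0.28 (SE 0.26), with groups that overlapped. Cst7 was at 0.93 (SE 0.23) and thus under the fold line, though all 4 ORP4L KI libraries, at 72.8 to 102 CPM, were above the WT range of 36.0 to 57.3 CPM.

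Of 13 transcription factors known from promyelocytes, 1 was called higher and 1 lower. Cebpe, which drives the secondary granule genes, had 6.52, 2.77 and 1.05 CPM in WT and 192, 17.03, 36.0 and 56.5 CPM in ORP4L KI libraries (log2 fold change 4.44, SE 0.94). That is the same order of libraries as for the 5 genes. Irf8, which favours monocytes and dendritic cells over neutrophils, had 252 to 428 CPM in WT and 108 to 198 CPM in ORP4L KI (log2 fold change -1.30, SE 0.27). The other 11 lay between -0.20 and 1.16, among them Spi1, which encodes PU.1 (-0.09, SE 0.45), and Cebpb (0.42, SE 0.46).

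By protein family, relatives of the 5 genes were called in both directions. Of 3 peroxidase superfamily genes tested, Epx, for eosinophil peroxidase, was called higher at 4.11 (SE 0.98) and Ptgs1, for cyclooxygenase 1, at 2.13 (SE 0.52), while Ptgs2, for cyclooxygenase 2, was called lower at -1.59 (SE 0.32). Without WT replicate 3 neither Epx nor Ptgs1 was called. Of 8 related serine proteases of lymphocytes, mast cells and basophils, 3 were called higher and 2 lower. Gzmk, for the lymphocyte protease granzyme K, had 3.77 to 11.2 CPM in WT. It was highest in ORP4L KI replicate 2 (206 CPM), against 38.2 to 56.5 CPM in the other ORP4L KI libraries. Among the ORP4L KI libraries, but not over all libraries, replicate 2 was the lowest for Elane, Prtn3 and Ctsg. None of the 8 had the library order of the 5 genes. Gzmm was at 1.75 (SE 0.33) and the basophil gene Prss34 at 2.90 (SE 0.88), a call lost without any 1 of 5 libraries. Gzma, at -2.26 (SE 0.38), and the mast cell chymase gene Cma1, at -2.03 (SE 0.37), were lower. Of 13 other members of the Ms4a family, none was called higher and 2 were called lower, Tmem176a (-1.27, SE 0.32) and Tmem176b (-1.22, SE 0.30), neither of them called without WT replicate 2 or with the replicate number as a block. Without ORP4L KI replicate 4 only Tmem176b was called.

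**Figure D3:**
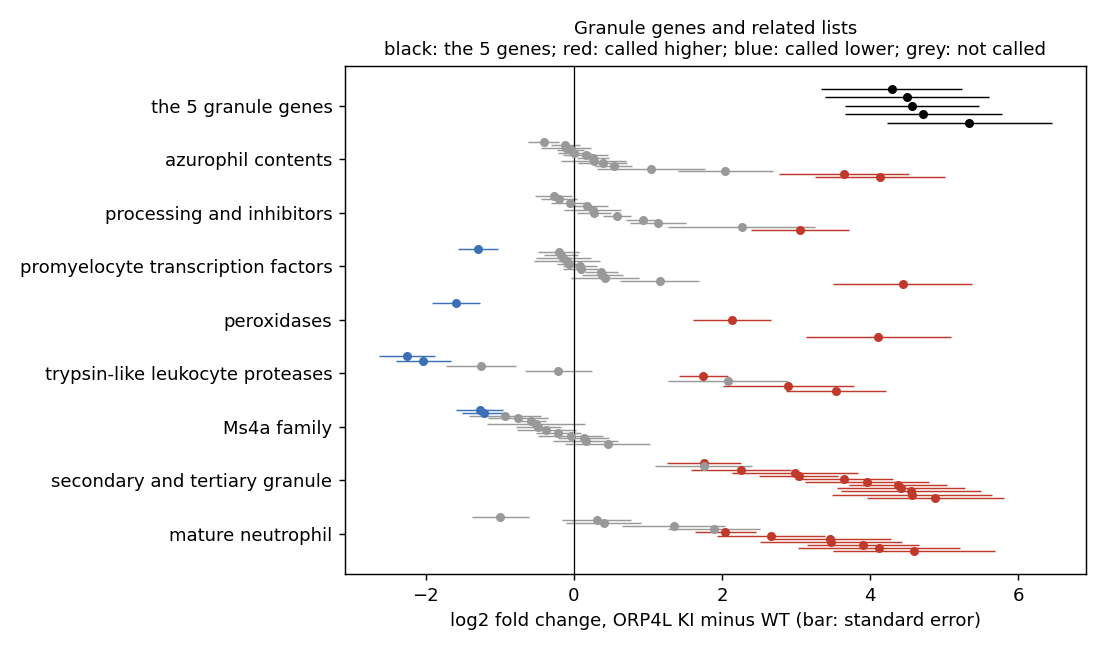
Log2 fold change of ORP4L KI over WT with its standard error for each tested gene, by list. The 5 genes (black) lie between 4.29 and 5.34, most azurophil content and transcription factor genes lie near 0, and 11 of 12 secondary and tertiary granule genes were called higher (red).

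Many genes of later neutrophil stages were high in the same libraries, the secondary and tertiary granule genes more uniformly than the mature neutrophil markers. Of 12 secondary and tertiary granule genes, 11 were called higher and none lower, with a median log2 fold change of 3.80. The number called was 8 without WT replicate 1, 2 or 3 or without ORP4L KI replicate 4, and 9 under the block. It was 10 without ORP4L KI replicate 1, and 12 without ORP4L KI replicate 2 or by DESeq2's Wald test. All 12 had the order of ORP4L KI libraries of the 5 genes, and 6 had the WT order too. Ltf, for lactoferrin, had 148 to 749 CPM in WT and 1782 to 15237 CPM in ORP4L KI (log2 fold change 4.41, SE 0.86). Of 12 mature neutrophil markers 7 were called higher, with a median of 2.35. Without WT replicate 1, 2 were called higher and 1, Csf3r, lower, and without WT replicate 3, 3 were called higher. S100a8, which encodes an abundant calcium-binding protein of the cytosol, was called higher at 4.12 (SE 1.09), a call lost without WT replicate 1 or 3. Csf3r, for the G-CSF receptor, had a negative value (-0.99, SE 0.38) and was not called, though it was called lower without WT replicate 1 (-1.31) and with scaling by total counts (-1.15).

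The ratio of early to later genes differed between libraries. The summed CPM of the 5 genes over that of the 12 secondary and tertiary granule genes was 0.0639, 0.0201 and 0.0214 in WT replicates 1 to 3, and 0.0790, 0.0886, 0.0524 and 0.0456 in ORP4L KI replicates 1 to 4. WT replicate 1 lay within the ORP4L KI range and the other WT libraries below it. Over the sum of S100a8 and S100a9 the ratio was 0.133, 0.0160 and 0.0309 in WT, and 0.0824, 0.206, 0.105 and 0.103 in ORP4L KI. ORP4L KI replicate 2, with the least of the 5 genes among the ORP4L KI libraries, had the highest of both ratios, and by the second ratio replicate 1 was the lowest of them. No test was made of these ratios, since the genes in them were chosen on the same contrast.

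Markers of other cell types moved less uniformly. Of 9 stem and progenitor genes tested 2 were called higher, Prom1 (4.66, SE 0.83) and Erg (2.44, SE 0.54), and 2 lower, Kit (-1.07, SE 0.19) and Flt3 (-1.44, SE 0.28). These marker genes together held 0.0265% to 0.0328% of counts in WT and 0.0183% to 0.0222% in ORP4L KI libraries. Of 10 monocyte and macrophage markers 1 was called higher, Ly6c2 (1.27, SE 0.37), which is also high in early myeloid cells, and 3 lower, among them Csf1r (-1.17, SE 0.22). The Ly6c2 call was lost without any 1 of 5 libraries, and those of Kit and Csf1r without WT replicate 2. Of these 10 genes, 1 was called without WT replicate 2, 2 without WT replicate 3 or ORP4L KI replicate 4, and 2 under the block. They held 0.132% to 0.212% of counts in WT and 0.109% to 0.245% in ORP4L KI. Of 9 basophil, mast cell and eosinophil genes 3 were called higher and none lower, Epx, Prss34 and Prg2, and their list held 0.0361% to 0.0780% of counts in WT and 0.0319% to 0.154% in ORP4L KI. Of these 9 genes, 0 were called without WT replicate 3, 1 without WT replicate 2, 2 without ORP4L KI replicate 1, 3 or 4, and 5 without ORP4L KI replicate 2. None of the 12 T-cell, 7 B-cell and 10 erythroid markers was called in edgeR's test, and their shares of counts were 0.235% to 0.354%, 0.0360% to 0.0613% and 1.08% to 1.86% in WT against 0.136% to 0.494%, 0.0212% to 0.0581% and 0.135% to 0.860% in ORP4L KI. Among these 29 markers 4 had an unadjusted p under 0.05 and 3 an adjusted p under 0.05 by DESeq2. Of the erythroid markers, 3 were called lower without ORP4L KI replicate 2 and 4 without replicate 3, and 4 with scaling by total counts. The part of the granulocyte marker level of each library in the values of the 5 genes was not tested. Counted once each, 42 of 137 tested genes of all these lists were called. By edgeR's adjusted p, 0 of the 137 were under 0.05, with 60 at an unadjusted p under 0.05 and 50 under 0.05 by DESeq2's adjusted p. The lists were put together with results of these data known, and the study itself had singled out Mpo, Cebpe, Erg, Mmp9, Prom1 and Pax5 on these samples, so these counts are no independent evidence of a direction.

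The genes most like the 5 across libraries were found by the root mean square difference between log2 CPM profiles, each centred on its own mean over the 7 libraries, and the mean profile of the 5 genes. Over 11737 genes with a mean log2 CPM of at least 1 the median difference was 2.61. The 5 genes themselves lay between 0.152 for Prtn3 and 0.306 for Ms4a3. The 10 nearest others were Cebpe (0.308), Ngp (0.350), Ear1 (0.353), Prg2 (0.410), Mogat2 (0.414), Prom1 (0.419), Fcnb (0.433), Ltf (0.437), Camp (0.440) and Orm1 (0.450). Ngp, Ltf, Camp and Orm1 are secondary granule genes. Prg2, for eosinophil major basic protein, and Ear1, for a ribonuclease of eosinophils with close paralogs whose reads could be shared, are known from eosinophils. Prom1 encodes the progenitor marker CD133 and Mogat2 an acyltransferase of triglyceride synthesis. Prg2 had 28.0, 7.29 and 4.42 CPM in WT and 729, 43.5, 95.0 and 232 CPM in ORP4L KI libraries. S100a8 and S100a9 were not among the nearest. Within WT both were highest in replicate 2, where the 5 genes were highest in replicate 1. The comparison is a description over 7 libraries that all these profiles share.

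**Figure D4:**
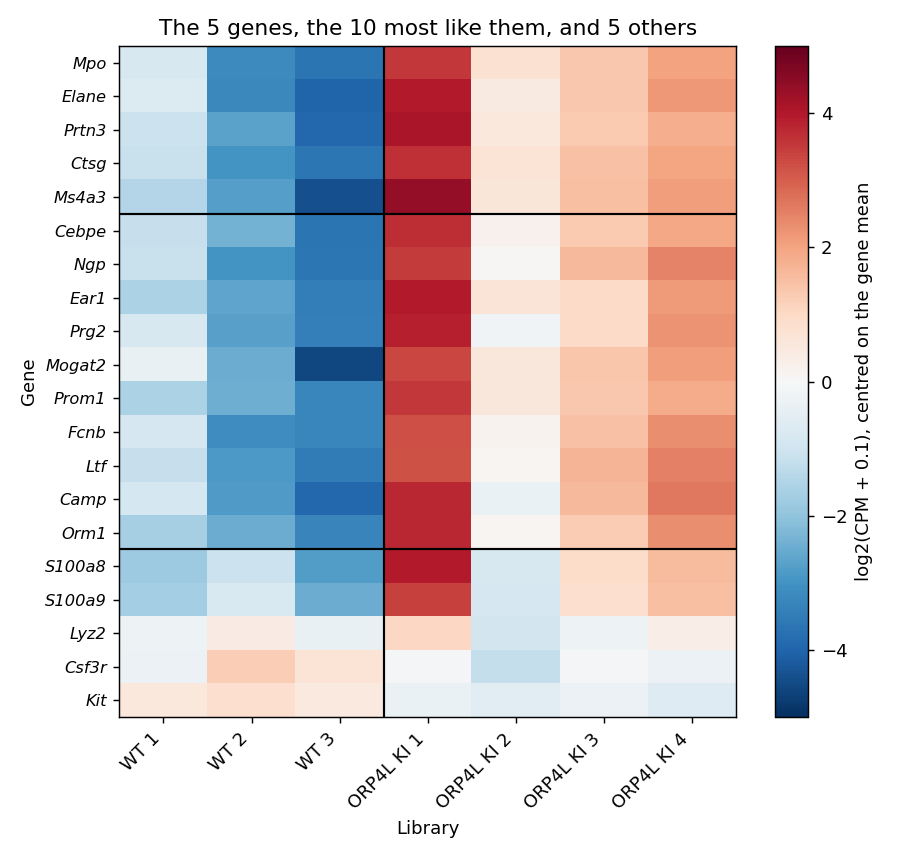
Heatmap of log2(CPM + 0.1), centred on the mean of each gene over the 7 libraries, for the 5 genes (top), the 10 genes most like them (middle) and 5 comparison genes (bottom). Top and middle rows are highest in ORP4L KI replicate 1 and lowest in WT replicate 3. Lyz2 has the same order of ORP4L KI libraries, but its lowest library is ORP4L KI replicate 2. Csf3r and Kit are highest in WT replicate 2.

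Genes beside the 5 on the chromosome mostly did not share their difference. Up to 3 protein-coding genes on each side gave 24 neighbours, of which 14 could be tested and 2 were called higher, none lower. Epx, 59584 bases beyond Mpo, was called at 4.11 (SE 0.98) and had 0.57 to 6.77 CPM in WT and 14.8 to 99.4 CPM in ORP4L KI libraries. Lpo, for lactoperoxidase, lies between Mpo and Epx and had at most 5 reads in any library. Tspoap1, 7855 bases before Mpo, had 18.1 to 25.5 CPM in WT and 38.9, 135, 53.0 and 53.0 CPM in ORP4L KI replicates 1 to 4 (log2 fold change 1.69, SE 0.42), and was not called without WT replicate 2 or 3. Among the ORP4L KI libraries its highest was replicate 2 and its lowest replicate 1, the reverse of Mpo. Cfd, 2636 bases beyond Elane, had 0 reads in all 7 libraries, which allows at most 0.232 CPM, by a floor of 3 counts per library. Mcpt8, a basophil protease gene 14385 bases from Ctsg, was not called (log2 fold change 2.09, SE 0.81), and Gzmd and Gzmg on the other side of Ctsg had 0 reads throughout.

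**Figure D5:**
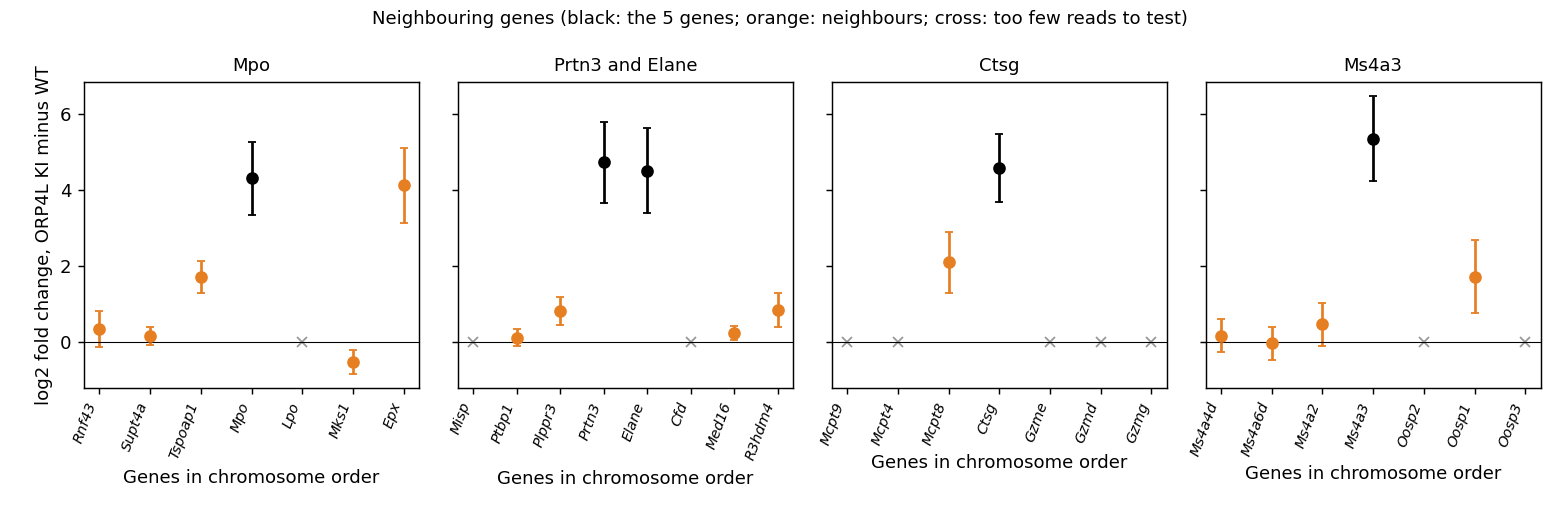
Log2 fold change of ORP4L KI over WT, with its standard error, of the 5 genes (black) and their neighbours (orange) in chromosome order, evenly spaced. Grey crosses on the zero line mark genes with too few reads to test and are not values. Every tested neighbour lies below the 5 genes, and Epx, at 4.11, comes closest.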

How the data were processed

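RNA of T-cells from 4 ORP4L KI and 3 WT mice was sequenced on an Illumina NovaSeq after mRNA library preparation. The authors trimmed adapters, dropped reads under 17 bases, mapped the rest to mouse mRNA references with FANSe3 and merged the splice variants of each gene. They deposited a raw read count per gene, not normalized, and the RPKM, scaled to the longest transcript and the library total. The processing notes of the submitters name mm10. Reads from human ORP4L and mouse Osbp2 cannot be separated, and the treatment of reads that fit several genes is not given in the sources used here.

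Groups and replicate numbers were taken from the sample labels. Within each group, all pairs of libraries differed by more than sampling noise. Counts of 13462 genes that passed filterByExpr (about 10 counts in enough libraries, 15 in all) were scaled by TMM and fitted with edgeR 4.0.16 (limma 3.58.1, R 4.3.3) by the quasi-likelihood F test, without covariates. SE is the log2 fold change over the square root of F. The call lines, p under 0.01 and log2 fold change above 1 in size, are those drawn in the volcano plot of the study, whose methods name no test for these data. RPKM served only to compare genes per length. The 5 genes, the lists and the motifs were chosen with earlier results of these data known. Named list genes were those called and up to 4 others per list with the highest counts. Alternatives were other scalings and filters, DESeq2 1.42.0, the replicate number as a block, and each library left out. Intervals and the floor of 3 counts cover counting error only. Tables were made with pandas 2.3.3 and SciPy 1.17.1 under Python 3.11.15, plots with Matplotlib 3.10.9.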

Additional observations from a re-analysis of the deposited data

Results flagged for a closer look

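Prtn3 and Ms4a3 each had 1 ORP4L KI library far from the other 3. Prtn3 stood at 1399 CPM in replicate 1 against 119 to 294 CPM, and Ms4a3 at 355 CPM in replicate 1 against 25.9 to 71.8 CPM. These are values on which the genes were chosen, so they are given as a description. Among genes of the lists, Slpi in the same library was at 2119 CPM against 82.6 to 341 CPM and S100a8 at 29058 CPM against 1048 to 5572 CPM. In replicate 2, Gzmk was at 206 CPM against 38.2 to 56.5 CPM and the neighbouring gene Tspoap1 at 135 CPM against 38.9 to 53.0 CPM. In replicate 3, Flt3 was at 58.2 CPM against 29.7 to 33.8 CPM. For normally distributed values, a library this far from the rest turns up in about 1 in 20 groups of 4 by chance. Of 45 groups examined 7 were flagged, where that rate gives 2.25. The gap was taken on CPM and not on a log scale, so the rate need not hold here. The genes examined are neither independent nor chosen apart from these values. Replicate 1 also had the highest level of the secondary granule and S100a8 and S100a9 markers, 76098 and 72993 summed CPM, whose part in these values was not tested.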

How the results depend on the processing

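The 5 genes kept a positive log2 fold change under each alternative, with a median of 4.31 to 4.60 under the other scalings, filters, tool and replicate block, and 3.44 to 5.78 with single libraries left out. They counted 4 or 5 of 5 called throughout.

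Genes called over all genes numbered 855 instead of 630 by DESeq2's Wald test, 466 under the block, 478 with 10 counts asked of every sample, and 328 (without WT replicate 2) to 805 with 1 library left out. Scaling by total counts gave 275 higher and 407 lower, against 320 and 310, and moved the median of all genes from 0.013 to -0.13. The count at an adjusted p under 0.05 was 3 and became 44 by upper-quartile scaling, 113 by total counts, 176 without a filter, 0 with 10 counts in every sample (1549 at an unadjusted p under 0.05), 784 by DESeq2, 48 under the block and 0 to 342 with 1 library left out. Called list genes numbered 28 to 53. The cause was not tested.

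Values that changed sign were those of Lyz2 without ORP4L KI replicate 1 (-0.16, range -0.16 to 0.54 with single libraries left out), Srgn by total counts (-0.00067) and Spi1 without WT replicate 2 (0.34) or ORP4L KI replicate 2 (0.15, range -0.41 to 0.34), none of them called in any of these.

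Same-numbered replicates did not deviate together (correlations 0.15, -0.53 and -0.032), so the block, which leaves out ORP4L KI replicate 4, rests on the number alone. Depth limits mainly Ms4a3, with 10 reads in WT replicate 3.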
